A study of Mus musculus with 5 samples.

Results

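The genes described here are 10 that encode subunits of RNA polymerase II, Polr2a to Polr2j, in invariant natural killer T (iNKT) cells of mouse liver. They were taken by symbol from the 55364 gene rows of each of 5 count tables, through the Ensembl ID of each row. The set was chosen by the measured level of Polr2a, which had already been seen to be higher in the tumour-bearing group. Its difference is therefore given as a description with no test, and the question is whether the other subunits followed it. The other 9 entered by their family name. The HCC group consists of 3 libraries from male wild-type C57BL/6 mice that had received 25 mg/kg of the hepatic carcinogen diethylnitrosamine (DEN) by a single intraperitoneal injection at 15 days of age and had hepatocellular carcinoma (HCC) when killed at 38 to 42 weeks. The healthy group consists of 2 libraries from wild-type mice given PBS. Their labels carry the same protocol text, with its strain, sex and age of 38 to 42 weeks, but that text is worded for the DEN mice and no label gives these for the PBS mice themselves. In both groups the cells were sorted from liver by a CD1d tetramer loaded with PBS57 together with anti-TCRb staining, and the labels of the HCC group call its tissue hepatocellular carcinoma without saying whether tumour was dissected from the liver around it.

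RNA polymerase II transcribes the protein-coding genes. Its largest subunits, the products of Polr2a and Polr2b, form the active centre, and the product of Polr2a also carries the C-terminal domain, a long tail of repeated heptapeptides whose phosphorylation changes through the transcription cycle. Polr2c and Polr2j encode a heterodimer around which the enzyme assembles, Polr2i a small subunit that takes part in proofreading, Polr2e, Polr2f and Polr2h subunits shared with RNA polymerases I and III, and Polr2d and Polr2g the stalk, which binds the nascent RNA.

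The libraries held 1718452 to 2224356 counts of 3' mRNA reads. Levels below are CPM, counts per 1000000 counts of the library's own table, and a count of 0 allows 1.35 to 1.75 CPM, for counting error only, since reads and not molecules were counted. Values are given in the order healthy 1, healthy 2 and then HCC 1, HCC 2, HCC 3. The 12 listed T cell and iNKT markers summed to 5441 to 7942 CPM, with Trac, a T cell receptor constant chain, at 488 to 803 CPM. The CD3 chain gene Cd3d was at 416 to 679.5 CPM, with every HCC library under both healthy ones. It was the only 1 of 11 tested markers of this list so placed (all genes: 5.46%), and 0 had every HCC library above. Of the 11, 6 were fitted higher and 5 lower. Klrb1c, which encodes NK1.1, was at 382, 5.49, 465, 20.9 and 333 CPM, low in healthy 2 and HCC 2. Zbtb16, the factor that defines iNKT development, was at 0 to 1.65 CPM in the 5 libraries. The part of these markers in the results was not tested. Healthy 1 stood apart: across tested genes its log2 levels correlated with those of the other libraries at a Pearson r of 0.733 to 0.791, whereas pairs among the other 4 had an r of 0.827 to 0.891, genes not being independent replicates. The table names of HCC 2 and HCC 3 share a number, so these libraries may come from 1 mouse, although the titles count them separately. Nothing more is said about how the replicates relate, so p values measure only the spread between these samples.

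Polr2a (ENSMUSG00000005198, chromosome 11, 69733997 to 69758637, mm10, minus strand) measured 16.6 and 27.4 CPM in the healthy group against 83.3, 96.6 and 71.7 CPM in the HCC group. All HCC libraries lay far above both healthy libraries, and the lowest HCC library was well above the highest healthy one. The means were 22.0 ± 7.64 CPM (SD, n = 2) and 83.8 ± 12.5 CPM (SD, n = 3), a ratio of 3.80, and the log2 fold change of HCC over healthy in edgeR was 1.77 (SE 0.40). These are the values for which the set was chosen. Across 14 other settings of the analysis the log2 fold change ran from 1.57, without healthy 1, to 2.03, without healthy 2. The counts behind the levels were 37 and 50 in the healthy and 153, 166 and 135 in the HCC libraries. No other annotated gene overlaps Polr2a, and of the 31-base words that end its transcripts (the final 300 bases) 0 occur in another annotated gene.

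The promoter letters of Polr2a are shown beside those of Polr2c, since these are the members whose 250 bases before the RefSeq start (GRCm38.p6) hold the letters TATAAA. A RefSeq window was at hand for 8 of the 10 members, and none was used for Polr2d and Polr2g. The stretches are given 5′ to 3′ on the gene's strand, at chr11:69758638-69758793 (minus strand) and chr8:94857290-94857449 (plus strand), with TATAAA and the GC box GGGCGG in capitals.
Polr2a: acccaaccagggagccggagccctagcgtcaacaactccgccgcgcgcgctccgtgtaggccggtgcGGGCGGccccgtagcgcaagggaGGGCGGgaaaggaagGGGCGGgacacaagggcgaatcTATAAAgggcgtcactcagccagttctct
Polr2c: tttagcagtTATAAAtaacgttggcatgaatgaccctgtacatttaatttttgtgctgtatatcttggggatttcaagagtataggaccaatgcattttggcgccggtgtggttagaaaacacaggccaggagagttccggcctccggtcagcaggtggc
In Polr2a the letters TATAAA begin 33 bases before the RefSeq start and follow 3 GC boxes. The printed Polr2a stretch ends 5 bases before that start, since bases inside the gene position given above were left out. In Polr2c TATAAA begins 151 bases before the RefSeq start, with no GC box in the stretch. Read on both strands, TATAAA was present in 12.4% of 32851 such promoter windows and in 2 of the 8 matched members, GGGCGG in 32.7% and in 6 of 8 (Polr2a, Polr2b, Polr2e, Polr2h, Polr2i and Polr2j). The other letters searched were CCAAT (33.8% of windows, 3 of 8 members), CCGGAAG, read by ETS factors (6.91%, Polr2f and Polr2j), GCATGCGC, the core read by NRF1 (2.26%, Polr2b and Polr2j), the longer NRF1 motif that contains this core (0.782%, 0 of 8) and the YY1 motif (0.207%, 0 of 8). On the gene's strand and beginning 24 to 40 bases before the start, a range chosen after the Polr2a letters were seen, TATAAA was present in 1.94% of the windows. These matches describe letters and not sites in use.

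The summed hepatocyte and the summed erythroid markers separated the groups, with the HCC side higher. Placed like Polr2a, with no HCC library as low as a healthy one, were 8 of 14 tested hepatocyte markers (all genes: 12.8%). The same held for 5 of 5 tested erythroid markers. The other tested hepatocyte markers, Alb among them, had overlapping groups. The hepatocyte sum was highest in HCC 3, which had the lowest Polr2a level of the HCC group. The erythroid sum was highest in HCC 2, which had the highest Polr2a level. Of 23 listed hepatocyte markers 22 had a row, and they summed to 62.0 and 77.4 CPM in the healthy group against 109, 414 and 972 CPM in the HCC group. Among them Alb (albumin) measured 3.60 and 18.1 CPM in the healthy group against 7.07, 58.8 and 199 CPM in the HCC group, and Apob was at 0 in all 5. Of 8 erythroid markers 7 had a row, and they summed to 2975 and 2787 CPM in the healthy group against 7391, 17083 and 15384 CPM in the HCC group, nearly all from globins, with Slc4a1 at 0 in all 5. B cell markers, 7 of 7 with a row, summed to 36.0 and 124 CPM and to 112, 177 and 132 CPM. Macrophage and neutrophil markers summed to 43.2 CPM or less and to 12.8 CPM or less, with Vsig4, Mpo and Elane at 0 in all 5. The part of other cells in the Polr2a difference was not tested, and in such bulk libraries fewer cells of a type and less RNA per cell cannot be told apart.

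The other large subunit had the next highest fitted change of the set. Polr2b (ENSMUSG00000029250, chromosome 5, 77310147 to 77349324, plus strand) measured 4.95 and 13.2 CPM in the healthy group against 21.8, 27.4 and 12.7 CPM in the HCC group. HCC 1 and 2 lay above both healthy libraries, and HCC 3 lay just below healthy 2. Its log2 fold change was 1.05 (SE 0.65, 95% interval -0.41 to 2.51), with 0.60 without healthy 1 and 1.74 without healthy 2. The interval includes 0. Counts of Polr2b were 11 and 24 in healthy and 40, 47 and 24 in HCC libraries, a thin base for a fold change. The ratio of Polr2a to Polr2b counts was 3.36 and 2.08 in the healthy and 3.83, 3.53 and 5.63 in the HCC libraries, so that the lowest HCC ratio was close to that of healthy 1.

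**Figure D1:**
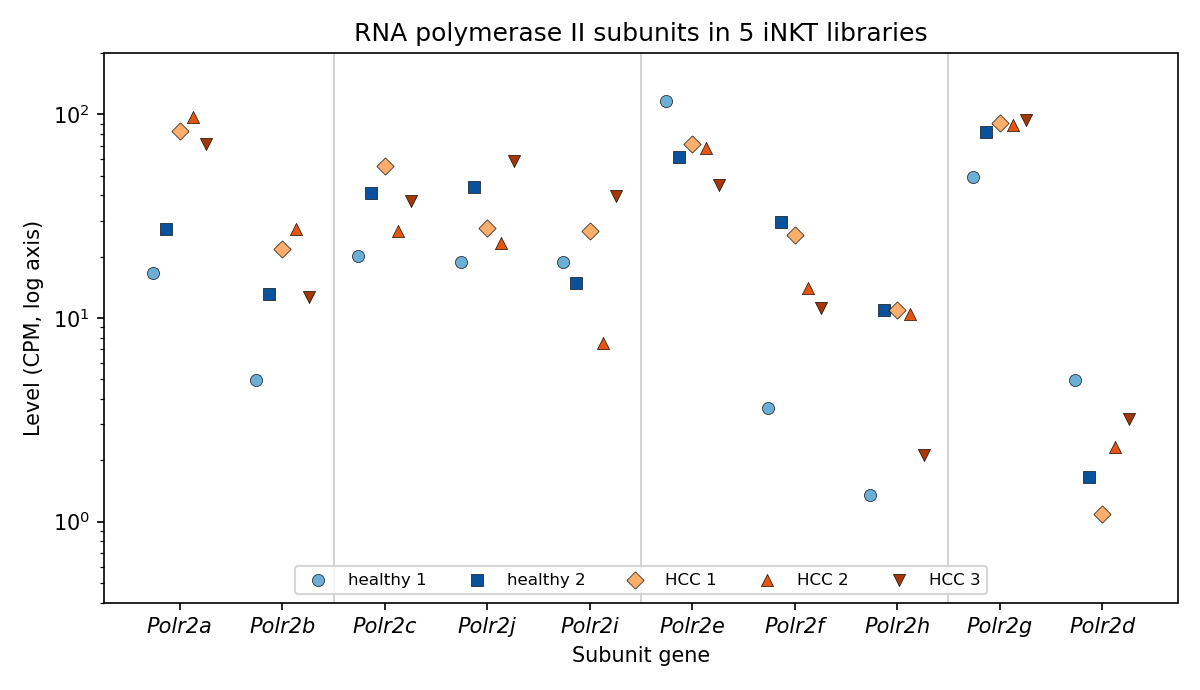
Level of each RNA polymerase II subunit gene in the 5 libraries, in CPM on a log axis; each symbol is 1 library, and vertical lines separate the active centre, the assembly platform with Polr2i, the subunits shared with the other polymerases, and the stalk. Polr2a has its HCC libraries at 71.7 to 96.6 CPM and its healthy libraries at 16.6 and 27.4 CPM, while most other subunits have the groups intermixed.

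The genes of the heterodimer on which the enzyme is built had the groups intermixed. Polr2c (ENSMUSG00000031783, chromosome 8, 94857450 to 94873535, plus strand) measured 20.2 and 41.2 CPM in the healthy group against 55.5, 26.8 and 37.7 CPM in the HCC group (log2 fold change 0.26, SE 0.50). Its partner Polr2j (ENSMUSG00000039771, chromosome 5, 136116631 to 136122947, plus strand) measured 18.9 and 43.9 CPM in the healthy group against 27.8, 23.3 and 58.9 CPM in the HCC group (0.12, SE 0.57). In both genes healthy 1 was lowest and healthy 2 lay among the HCC libraries. The partners did not move in step: Polr2c was highest in HCC 1 and Polr2j in HCC 3, and the ratio of their counts ran from 0.640 in HCC 3 to 2.00 in HCC 1. The small subunit gene Polr2i (ENSMUSG00000019738, chromosome 7, 30231948 to 30233390, plus strand) measured 18.9 and 14.8 CPM in the healthy group against 26.7, 7.56 and 39.8 CPM in the HCC group (0.38, SE 0.71), so that the HCC libraries held both its highest and its lowest level. Strand was not given for the counting, and 2 of these genes overlap an expressed gene on the other strand: Polr2i overlaps Tbcb, with 53 to 90 counts per library, and Polr2j overlaps Lrwd1, with 11 to 38. Of the end words of Polr2c, 43.0% also occur in other genes, 462 of them, so part of its count may belong elsewhere.

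Among the subunits shared by the 3 RNA polymerases, healthy 1 was the extreme library, in opposite directions. Polr2e (ENSMUSG00000004667, chromosome 10, 80035949 to 80039795, minus strand) measured 116 and 61.5 CPM in the healthy group against 71.3, 68.1 and 45.1 CPM in the HCC group. Healthy 1 thus held the highest level, and healthy 2 lay within the HCC range. The log2 fold change of -0.77 (SE 0.46, 95% interval -1.80 to 0.25) became -0.033 without healthy 1 and -1.21 without healthy 2. Polr2f (ENSMUSG00000033020, chromosome 15, 79141009 to 79151774, plus strand) measured 3.60 and 29.6 CPM in the healthy group against 25.6, 14.0 and 11.1 CPM in the HCC group (-0.035, SE 0.80). The healthy libraries lay on either side of the HCC libraries, 8.24-fold apart, and the sign of the log2 fold change of Polr2f changed in 7 of 14 other settings. Polr2h (ENSMUSG00000021018, chromosome 16, 20717665 to 20722267, plus strand) measured 1.35 and 11.0 CPM in the healthy group against 10.9, 10.5 and 2.12 CPM in the HCC group (0.26, SE 1.12). Healthy 1 and HCC 3 were low in Polr2h, with 3 and 4 counts, and the other 3 libraries had 18 to 20. Of the end words of Polr2h, 17.5% also occur in the pseudogene Gm7511, whose row held at most 1 count per library.

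The stalk genes differed in level and in pattern. Polr2g (ENSMUSG00000071662, chromosome 19, 8793127 to 8798577, minus strand) measured 49.0 and 81.8 CPM in the healthy group against 90.9, 88.5 and 94.0 CPM in the HCC group. All HCC libraries were above both healthy libraries, by a small margin over healthy 2 (log2 fold change 0.33, SE 0.37, 95% interval -0.50 to 1.16). After TMM scaling of the library sizes that margin was 79.8 CPM in HCC 2 against 79.7 CPM in healthy 2. Polr2d (ENSMUSG00000024258, chromosome 18, 31789159 to 31796701, plus strand) had 11 and 3 counts in healthy and 2, 4 and 6 counts in HCC libraries, 1.09 to 4.95 CPM, and did not pass the filter on low counts, so no fold change is given. The number of Polr2g counts per Polr2d count was 9.91 to 83.5.

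With all 10 members accounted for, 9 passed the low-count filter of edgeR and 8 of these were subunits other than Polr2a. None of these 8 passed edgeR's quasi-likelihood test of HCC against healthy (adjusted p = 0.9998 or more over all genes), and 0 of 8 had an unadjusted p under 0.05. Among all tested genes 0 of 8468 were higher and 0 lower, a background of 0%, with 307 at an unadjusted p under 0.05, 3.63% of those tested. DESeq2 and limma-voom also called 0 of the 8, and over all genes DESeq2 called 8 higher and limma-voom 0. The fitted log2 fold change was above 0 in 6 of 8 (all genes: 50.3%) and below 0 in Polr2e and Polr2f. The median over the 8 was 0.26 against 0.0047 over all tested genes. Without healthy 1 the fitted change was above 0 in 3 of 8, namely Polr2b, Polr2g and Polr2i. All HCC libraries were above both healthy libraries in 1 of the 8, Polr2g, where 12.8% of tested genes were so placed, and below both in 0, where 5.46% were (8.44% with TMM-scaled levels). With TMM-scaled levels Polr2b joined Polr2g (12.9 CPM in HCC 3 against 12.8 CPM in healthy 2), and the background was 10.6%. The 95% interval included 0 in all 8 tested subunits. Its upper bound ran from 0.25 in Polr2e to 2.76 in Polr2h. In 3 of the 8, Polr2b, Polr2h and Polr2i, the interval also included 1.77, the fitted value of Polr2a. That value chose the set and has its own error (SE 0.40), so this count is a description. It does not show that the remaining subunits differed from Polr2a. No difference in fold change between Polr2a and another subunit was tested.

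**Figure D2:**
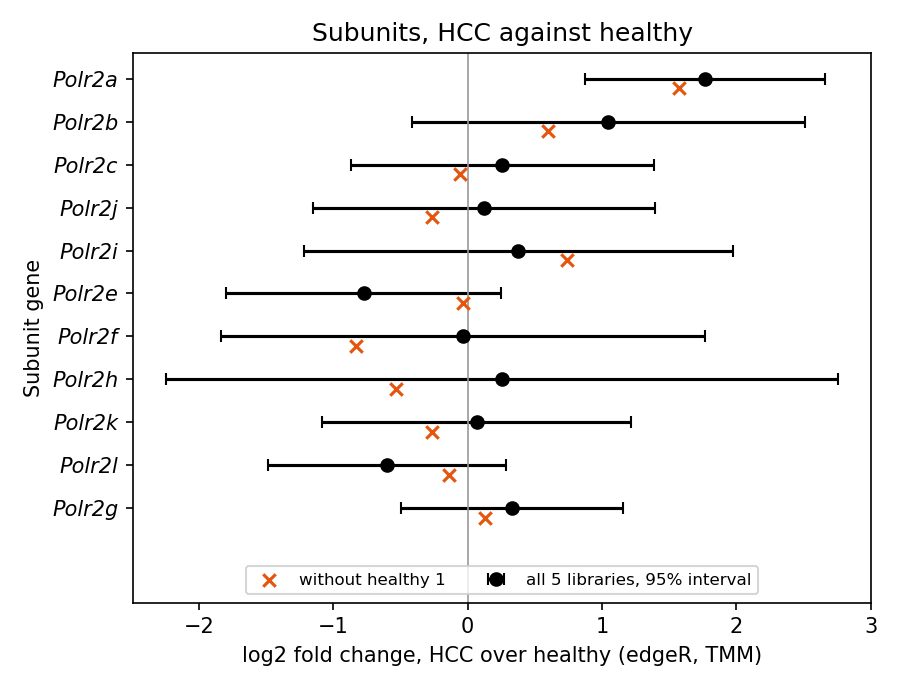
Log2 fold change of HCC over healthy from edgeR for each subunit kept by the low-count filter, with its 95% interval over all 5 libraries (black) and the value without healthy 1 (orange crosses). Polr2k and Polr2l are subunits outside the set of 10. The values of Polr2a chose the set, so its interval is a description and not a test against 0. Polr2a lies at 1.77, Polr2e at -0.77, and 5 subunits among Polr2b to Polr2j lie at or below 0 without healthy 1.

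A share within a library does not depend on the scaling between libraries. Polr2a gave 6.54% (95% Wilson interval 4.78 to 8.88) and 8.42% (6.44 to 10.9) of the counts of the 10 subunits in healthy 1 and 2. In HCC 1, 2 and 3 it gave 20.1% (17.4 to 23.1), 26.5% (23.2 to 30.1) and 19.0% (16.3 to 22.1). The intervals cover counting error only, and since the Polr2a counts chose the set the shares are a description. The means were 7.48 ± 1.33% (SD, n = 2) and 21.9 ± 4.03% (SD, n = 3). The summed level of the other 9 subunits was 238 and 299 CPM in the healthy group against 331, 268 and 305 CPM in the HCC group, means of 268 ± 43.0 and 301 ± 31.7 CPM. For that sum HCC 2 lay between the healthy libraries, although HCC 2 had the highest Polr2a. The largest share in the healthy libraries was that of Polr2e in healthy 1 (45.6%) and of Polr2g in healthy 2 (25.1%). Polr2a was sixth of 10 in level in both healthy libraries (rank 6), rank 2 in HCC 1 and HCC 3, and rank 1 in HCC 2.

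**Figure D3:**
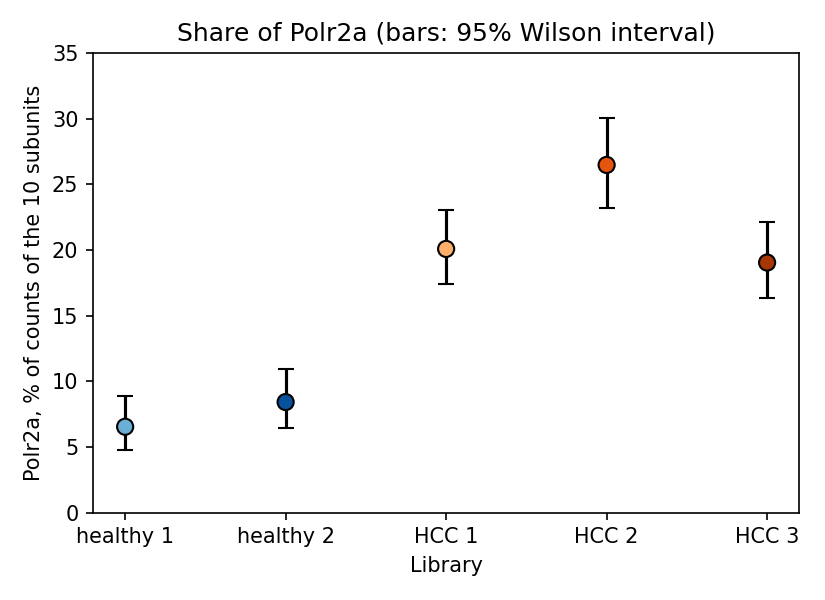
Polr2a counts as a percentage of the counts of all 10 subunit genes in each library, with 95% Wilson intervals for counting error. The healthy libraries are at 6.54% and 8.42% and the HCC libraries at 19.0% to 26.5%.

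In order of mean level over the 5 libraries the members were Polr2g (80.8 CPM), Polr2e (72.4), Polr2a (59.1), Polr2c (36.3), Polr2j (34.5), Polr2i (21.5), Polr2f (16.8), Polr2b (16.0), Polr2h (7.16) and Polr2d (2.64). The libraries were primed at the 3' end of transcripts, so CPM were not divided by length, and the order is a description. Neighbours in the order had overlapping ranges over libraries. Polr2b was above Polr2h in all 5 libraries, Polr2j was above Polr2i in 4 libraries and level with it in healthy 1, and every other pair of neighbours had the reverse order in at least 1 library. The highest level was 1.92-fold the lowest in Polr2g, the most even member, and 8.24-fold in Polr2f. Healthy 1 held the lowest level of 7 of the 10 members and the highest of 2, Polr2e and Polr2d.

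The remaining core subunits, outside the set of 10, were fitted close to 0 or below it. Polr2k (ENSMUSG00000045996, chromosome 15, 36174010 to 36177010, plus strand) measured 14.4 and 30.2 CPM in the healthy group against 24.5, 22.1 and 29.7 CPM in the HCC group (log2 fold change 0.067, SE 0.51). Polr2l (ENSMUSG00000038489, chromosome 7, 141471860 to 141475132, minus strand) measured 106 and 75.2 CPM in the healthy group against 64.8, 72.7 and 71.1 CPM in the HCC group, with every HCC library under the lower healthy one (-0.60, SE 0.40, and -0.14 without healthy 1). Both are shared by the 3 polymerases, and neither passed. Of their end words 18.7% and 33.7% occur in other genes too. Gm14567, a pseudogene that shares words with Polr2k, held 29 to 90 counts per library, more than Polr2k itself in 4 of the 5.

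The genes of the machinery around RNA polymerase II were taken as 9 lists with 156 genes, of which 126 were tested. None passed in edgeR in either direction, against the background of 0%, with 4 at an unadjusted p under 0.05. Fitted changes were above 0 in 67 and below 0 in 59, with a median of 0.090 against 0.0047 over all genes. The list medians below moved with the healthy library left out, and so did the median of all genes, to 0.059 without healthy 1 and 0.23 without healthy 2. Each setting had its own low-count filter, which kept 141 list genes without healthy 1 and 140 without healthy 2, against 126 here. Medians with a library left out are therefore not over the same genes, and the part of the added genes was not tested. All HCC libraries were above both healthy libraries in 14 (11.1%, background 12.8%) and below both in 8 (6.35%, background 5.46%).

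The catalytic subunits of the other polymerases were low, and values in pairs from here on are healthy and HCC means with the same SD and n. Polr1a, the largest subunit of RNA polymerase I, had a mean of 4.82 ± 1.73 CPM (SD, n = 2) in the healthy group against 5.72 ± 0.596 CPM (SD, n = 3) in the HCC group, with Polr1b, its other large subunit, at 3.02 ± 4.27 and 4.94 ± 1.83 CPM. Polr1b had 0 counts in healthy 1. Polr3a, the largest subunit of RNA polymerase III, had 0 and 2 counts in healthy and 11, 2 and 4 counts in HCC libraries and was not tested. Polr3b was at 7.34 ± 8.05 and 9.82 ± 6.68 CPM. At these depths the 95% intervals of the log2 fold change were wide, -2.22 to 2.40 in Polr1a and -2.36 to 2.56 in Polr3b. Of the RNA polymerase I list 7 of 8 genes were tested, 5 fitted higher and 2 lower (median 0.11, but -0.26 without healthy 1 and 0.89 without healthy 2). Polr1d was at 87.3 ± 64.4 and 101 ± 15.5 CPM and Polr1c at 61.1 ± 39.4 and 75.8 ± 12.4 CPM. Of the RNA polymerase III list 7 of 11 were tested, 4 fitted higher and 3 lower (median 0.10, but 0.41 without healthy 1 and -0.42 without healthy 2), with Polr3f at 21.1 ± 22.9 and 43.0 ± 29.3 CPM and Polr3k at 21.4 ± 20.1 and 31.8 ± 11.9 CPM. All HCC libraries were below both healthy ones in 1 of these 7, Polr3e, and in 0 of the 7 of RNA polymerase I (all genes: 5.46%). They were above both in 0 tested genes of either list (all genes: 12.8%).

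Factors that place the polymerase at promoters were divided in direction. Of 24 tested general transcription factors 10 were fitted higher and 14 lower (median -0.092). The median was -0.075 without healthy 1 and 1.42 without healthy 2, each over the genes kept in that setting. Of the 31 listed, 8 had 0 counts in healthy 1, the only healthy library of the latter fit. Taf10, a subunit of TFIID, was at 147 ± 44.5 and 156 ± 27.9 CPM, while Gtf2h5, a subunit of TFIIH, was at 47.4 ± 9.81 and 48.8 ± 17.6 CPM. Of 28 tested Mediator genes, whose complex links activators to the polymerase, 15 were fitted higher and 13 lower (median 0.18, but 0.0031 without healthy 1 and 0.29 without healthy 2), with Med28 at 129 ± 64.7 and 169.7 ± 19.2 CPM and the cyclin Ccnc at 36.7 ± 26.5 and 32.4 ± 15.0 CPM. All HCC libraries were above both healthy libraries in 4 of the 24 general factors and 5 of the 28 Mediator genes (all genes: 12.8%) and below both in 1 and 3 (all genes: 5.46%).

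The later steps of transcription, and the building of the enzyme, were covered by the remaining lists. Of 25 tested pausing and elongation factors 13 were fitted higher and 12 lower (median 0.026, but 0.27 without healthy 1 and 0.55 without healthy 2), and 5 had all HCC libraries above both healthy ones (all genes: 12.8%) and 0 below (all genes: 5.46%). Supt4a, a subunit of the pausing factor DSIF, was at 150.1 ± 40.7 and 148 ± 32.9 CPM, and Cdk9, the kinase that releases paused polymerase, at 58.0 ± 22.8 and 75.2 ± 13.6 CPM. Of 8 tested phosphatases and binding proteins of the C-terminal domain 4 were fitted higher and 4 lower (median -0.055, but -0.26 without healthy 1 and 0.23 without healthy 2), with Ssu72 at 39.1 ± 11.4 and 50.3 ± 10.5 CPM and Ctdsp2 at 40.4 ± 36.8 and 46.3 ± 5.19 CPM. Of 16 tested termination and 3' end factors 13 were fitted higher and 3 lower (median 0.23, but 0.38 without healthy 1 and 0.47 without healthy 2), with Nudt21 at 51.8 ± 2.04 and 60.4 ± 18.0 CPM and the endonuclease Cpsf3 at 37.1 ± 9.81 and 41.2 ± 20.6 CPM. Of 9 tested assembly and import factors of RNA polymerase II 2 were fitted higher and 7 lower (median -0.33, but 0.52 without healthy 1 and -0.53 without healthy 2), with the chaperone Hsp90ab1 at 249.8 ± 41.1 and 306 ± 40.7 CPM and the GTPase Gpn1 at 37.4 ± 26.2 and 32.3 ± 7.36 CPM. All HCC libraries were below both healthy ones in 2 of the 9 (all genes: 5.46%) and above both in 0 (all genes: 12.8%). The 2 were Ruvbl1, at 17.7 ± 1.71 and 5.09 ± 3.27 CPM, and Telo2, at 20.7 ± 1.29 and 12.8 ± 2.03 CPM. In the C-terminal domain list and the termination list 0 were above and 0 below.

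**Figure D4:**
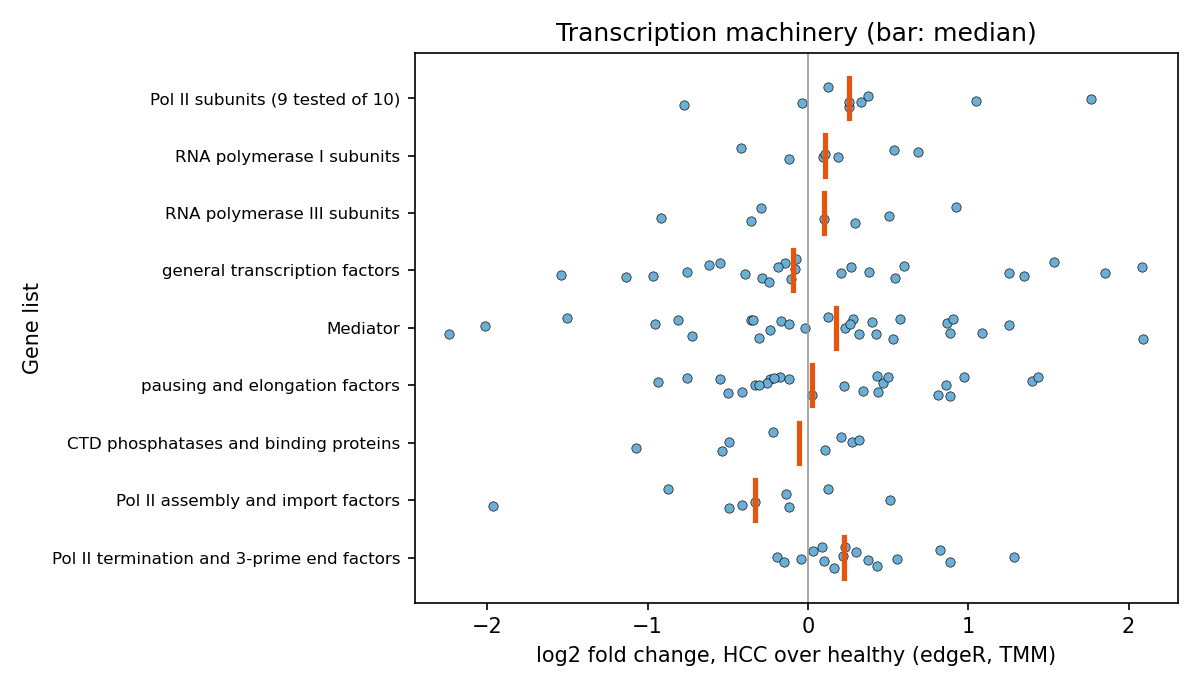
Log2 fold change of HCC over healthy from edgeR for each tested gene (points) of RNA polymerase II and of the lists around it, with the median of each list as an orange bar. Polr2a, whose values chose the set and which is a description, is the rightmost point of the top row at 1.77. The medians lie between -0.33 and 0.26.

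Genes were also ranked by the likeness of their profile to that of Polr2a. Likeness was measured as the root mean square distance between log2(CPM + 1) values over the 5 libraries, each gene centred on its mean, among 4700 protein-coding genes with at least 10 CPM. The nearest were Synj1, a phosphoinositide phosphatase, at a distance of 0.17, Wapl, which releases cohesin from DNA (0.19), Atg3, an enzyme of autophagy (0.19), Sec24c, a coat protein of vesicles leaving the endoplasmic reticulum (0.20), and Mrm1, an RNA methyltransferase of mitochondria (0.21). Sec24c measured 14.4 and 23.1 CPM in the healthy group against 56.6, 57.6 and 51.0 CPM in the HCC group. Polr2b came at rank 102 with a distance of 0.45 and Polr2g at rank 750 with 0.70. Polr2c, Polr2f, Polr2j, Polr2i and Polr2e followed at ranks 1623 to 3988. Polr2d and Polr2h had means under 10 CPM and were not ranked. The likeness rests on the same 5 libraries for which Polr2a was chosen and carries no test. With 4700 genes compared and only a few subunits among them, nearer genes outside the set were to be found in any case. Synj1, Atg3 and Mrm1 reached the mean of 10 CPM only through the HCC libraries (healthy means of 4.14, 5.64 and 3.59 CPM).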

How the data were processed

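Libraries were made with a 3' mRNA kit (QuantSeq for Ion Torrent) from RNA of sorted liver iNKT cells, per the labels' protocols. The deposited values are raw counts per Ensembl gene ID, 1 table per library, without normalization. The submitters' processing notes name HISAT2, Bowtie2, DESeq2, edgeR and limma without roles, and the build mm10. Which program, annotation and strand served for counting is not given in the sources used here. Symbols and positions came from GENCODE M21, which named 55104 of 55364 IDs.

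The deposited counts went into edgeR 4.0.16 (R 4.3.3): filterByExpr by group, TMM (factors 0.83 for healthy 1 and 1.00 to 1.12 for the others), and the quasi-likelihood test over all 8468 kept genes, with Benjamini-Hochberg adjustment and a threshold of 0.05. SE values and 95% intervals of log2 fold changes come from that fit. Levels are CPM from each table's own total. Alternatives were DESeq2 1.42.0, limma-voom (limma 3.58.1), other scalings and filters, a replicate block, HCC 2 and 3 summed, protein-coding genes only, and each library left out. The functions were tested on simulated data. Sequences are from RefSeq (GRCm38.p6). Genes were named by rule: the members, Polr2k, Polr2l, Polr1a, Polr1b, Polr3a, Polr3b, the 2 tested genes of highest mean level in each list, and the 5 nearest to Polr2a in profile. Markers were shown where defining or at 0. The members and lists were chosen with earlier results of these data known.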

Additional observations from a re-analysis of the deposited data

How the results depend on the processing

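Polr2a was described and not tested. None of the other subunits and no gene of the 9 lists passed in any of the 14 other settings. With 2 against 3 libraries of these counts the intervals stay wide (a biological coefficient of variation of 53.8%). Over all genes edgeR called 29 higher and 24 lower with no filter on low counts, 3 higher with the replicate block and 0 to 102 higher and 0 to 94 lower when 1 library was left out, the upper values without healthy 2, where healthy 1 is assumed to vary like the HCC libraries. DESeq2 called 8 higher. Library totals in place of TMM moved the median log2 fold change of all genes from 0.0047 to 0.16. The number of the other subunits fitted higher ran from 3 (without healthy 1) to 7 of 8 when 1 library was left out. Signs changed as follows. Polr2f was at 0.033 with library totals, 0.40 in limma-voom, 0.56 with the replicate block, 0.13 with HCC 2 and 3 summed and -0.83 to 1.93 with 1 library left out. With 1 library left out Polr2c ran from -0.055 to 0.71, Polr2h from -0.53 to 2.18, Polr2i from -0.18 to 0.83, Polr2j from -0.45 to 0.69 and Polr2k from -0.27 to 0.54. With the replicate block Polr2i, Polr2j and Polr2k were at -0.41, -0.40 and -0.063. The cause of these changes was not tested. The block drops HCC 3, which has no partner. Same-numbered libraries correlated at 0.0014 and 0.12 in their deviations from the group means, and healthy 1 with HCC 3, which share no number, at 0.12. With 2 healthy libraries the healthy deviations mirror each other, so these values cannot show whether the numbers mark pairs. The numbers were not taken as pairs, and the block changed no call among the subunits. Among 12 subunits, with Polr2k and Polr2l, the share of Polr2a was 5.40% in healthy and 17.5% in HCC libraries, and with 1 library left out the mean over 10 subunits was 6.54 to 8.42% and 19.6 to 23.3%. The comparison of groups on TMM-scaled levels, and the same count without healthy 1, were added after the data had been seen.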
